A study of Homo sapiens with 6 samples.

Results

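Transcripts of 9 genes of the NRF2 antioxidant system were measured in SW620 cells, an established human colorectal cancer line from a lymph node metastasis. The genes were chosen by name: the transcription factor NFE2L2 (which encodes NRF2), its inhibitor KEAP1, and the targets NQO1, HMOX1, GCLC, GCLM, TXNRD1, SRXN1 and SLC7A11. All 9 were found among the 20476 gene rows of the table, and all 9 were among the 12576 genes with enough counts to be tested. Stable lines were compared: shECM1 (3 libraries) expresses a hairpin that targets ECM1, a secreted matrix glycoprotein, and shNC (3 libraries) expresses a negative control hairpin. Both groups were the same line. Neither the hairpin sequence nor whether each group was a clone or a pool is given in the sources used here.

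NRF2 is held at a low level in unstressed cells because KEAP1, an adaptor of a CUL3 ubiquitin ligase, presents it for degradation. Oxidants and electrophiles modify cysteines of KEAP1, NRF2 accumulates, pairs with a small MAF protein and binds antioxidant response elements near its targets. This control acts mainly on the NRF2 protein, so the transcripts of its targets are the usual readout of its activity in RNA data. The targets supply glutathione and reduced thioredoxin, remove quinones and break down heme, and in colorectal cancer cells they bear on resistance to oxidative stress and ferroptosis.

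No one of the 9 genes passed the test between the groups, and the set split in both directions. NQO1 and SLC7A11 had the lowest levels relative to control, at 80.2% and 77.3% of the shNC mean, and KEAP1, GCLC and TXNRD1 were at 116.3%, 114.2% and 111.9%. The quasi-likelihood test of edgeR, adjusted by the Benjamini-Hochberg method, called 0 of the 9 genes, where it called 0% of all 12576 genes. DESeq2 called 0 of the 9, where it called 6.04% of the 11600 genes it gave an adjusted p, and limma-voom called 0 of the 9 and 0 of all genes. At an unadjusted p under 0.05 there was 1 of the 9, NQO1, which was lower, against 22.5% of all genes (14.2% lower and 8.31% higher). The median log2 fold change of the 9 genes (shECM1 minus shNC) was -0.01, with 5 negative and 4 positive, and the median over all genes tested was 0.01.

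The libraries held 9881720 to 16813951 counts and 14738 to 15107 detected genes. ECM1 itself was at 36.7 ± 16.7 CPM (counts scaled to library size with TMM factors; mean ± SD, n = 3) in shNC and 12.3 ± 3.4 CPM in shECM1 (n = 3), a log2 fold change of -1.58 ± 0.32 (SE) that edgeR did not call (adjusted p = 0.0973). By library ECM1 was at 38.8, 19 and 52.3 CPM in shNC replicates 1, 2 and 3. It was at 14.8, 13.6 and 8.41 CPM in shECM1 replicates 1, 2 and 3, so shNC replicate 2 was the control nearest to the knockdown libraries. The assignment of columns to groups is an inference from their letters and numbers. ECM1, the target of the hairpin, was lower in all columns read as shECM1 than in all those read as shNC. With the letters read the other way every direction given here would reverse. One control library stood apart. On the first principal component (58.2% of the variance) shNC replicate 2 was at 8.64, near the shECM1 libraries (16.6 to 23.3) and away from shNC replicates 1 and 3 (-25.2 and -41.3). On the second (18.4%) shECM1 replicate 3 was at -24.6, away from shECM1 replicates 1 and 2 at 19.3 and 9.81. Without shNC replicate 2, edgeR called 23.9% of 12730 genes. The libraries also differed in how counts depended on the GC content of transcripts. From the 10th to the 90th percentile of GC (38.6% to 62%) the trend in log2 CPM differed by 0.28, -0.03 and 0.29 in shNC replicates 1, 2 and 3 and by -0.35, -0.32 and 0.12 in shECM1 replicates 1, 2 and 3.

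Of 13 colorectal epithelial markers 11 were tested, with summed levels of 12239 to 18057 CPM in the controls and 11884 to 13231 CPM with shECM1, and CDX1 and GPA33 were below the count filter. KRT8, KRT18 and KRT19 made up most of these sums, at 7601, 4185 and 2157 CPM in shNC replicate 1. In that library VIL1 was at 386 CPM, CEACAM5 at 33.6, CDX2 at 15.8, CDH17 at 7.28, KRT20 at 1.78 and LGALS4 at 0.508. Markers of other cell types were low. The 10 fibroblast markers summed to 23.8 to 36.1 CPM in the controls and 16.8 to 21.4 CPM with shECM1, the 12 immune markers to 11.1 to 22.4 and 7.74 to 9.44 CPM, and the 8 endothelial markers to 9.98 to 12.4 and 8.04 to 9.22 CPM. PDGFRA, COL3A1, FAP, PTPRC, CD3E and KDR had 0 counts in every library. The 6 hepatocyte markers summed to 42.3 to 103.4 and 35.7 to 47.6 CPM, and SERPINA1 made up nearly all of these sums. ALB, APOA1, APOA2, TTR and CYP3A4 were each at 0.573 CPM or less in every library. The fibroblast, immune and endothelial sums were lower in all shECM1 libraries than in all shNC libraries, and their part in the results on NRF2 genes was not tested. In RNA pooled over cells, fewer cells that transcribe a gene and less RNA of that gene per cell cannot be told apart.

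NFE2L2 (ENSG00000116044, GRCh38 chromosome 2, 177227595 to 177392697, minus strand) encodes the NRF2 protein itself. Its level in shNC replicates 1, 2 and 3 was 183, 184 and 192 CPM, and in shECM1 replicates 1, 2 and 3 it was 179.7, 193 and 146 CPM. The control libraries lay close together, with shECM1 replicate 1 just below them, replicate 2 just above and replicate 3 far below. The groups overlapped. The log2 fold change was -0.11 ± 0.12 (SE), with a 95% interval of -0.36 to 0.15 and an edgeR adjusted p of 0.595. The interval covers a level between 0.777 and 1.11 times that of the control. Without shECM1 replicate 3 the log2 fold change was 0.0015. Exons of NFE2L2 overlap those of AGPS on the other strand, and whether counting used strand is not given in the sources used here, so reads of the overlap cannot be told apart. Antisense genes also overlap exons of NQO1, GCLC and SLC7A11, to which the same limit applies.

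KEAP1 (ENSG00000079999, chromosome 19, 10486120 to 10503741, minus strand) encodes the sensor that targets NRF2 for degradation. It was at 51.6, 58.5 and 49.9 CPM in the controls and at 52.3, 53.6 and 80.2 CPM with shECM1. The same single library, shECM1 replicate 3, was far above the other 5, in which the groups overlapped. The log2 fold change was 0.22 ± 0.16 (95% interval -0.14 to 0.58, adjusted p = 0.438), and without that library it was -0.0088. The ratio of KEAP1 to NFE2L2 in CPM, not corrected for transcript length, was 0.282, 0.319 and 0.261 in shNC, 0.291 and 0.278 in shECM1 replicates 1 and 2, and 0.551 in shECM1 replicate 3. The library thus had the highest KEAP1 and the lowest NFE2L2 level of all 6. Relative to the mean of the 6 libraries, KEAP1 stood at 0.49 and NFE2L2 at -0.30 on the log2 scale in shECM1 replicate 3, and after the GC trend of that library was subtracted they stood at 0.47 and -0.29.

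**Figure D1:**
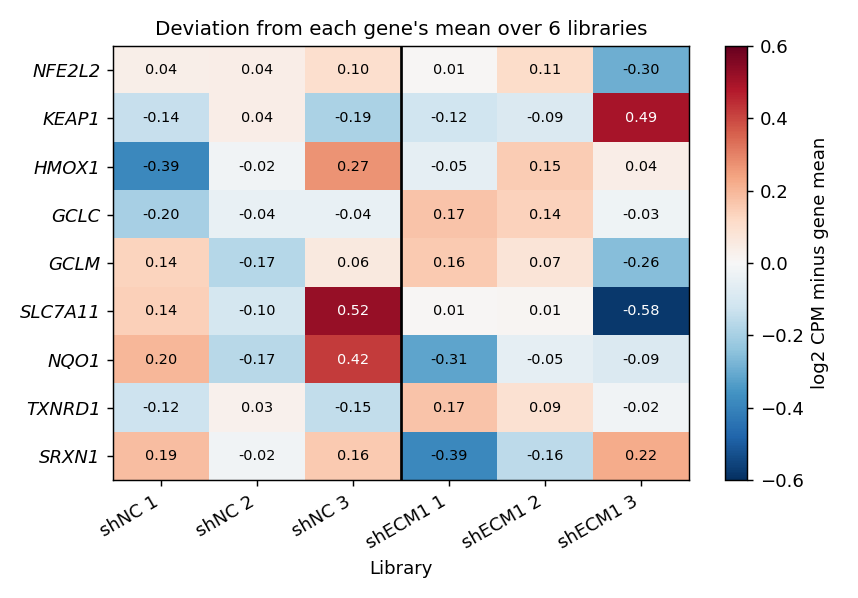
Deviation of log2 CPM from each gene's own mean over the 6 libraries, with 1 row per gene and 1 column per library; the black line separates shNC from shECM1. In shECM1 replicate 3, KEAP1 stands at 0.49 and SLC7A11 at -0.58, while in shNC replicate 3 SLC7A11 stands at 0.52 and NQO1 at 0.42.

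The antioxidant response element has the core letters TGACNNNGC. These were searched on both strands in RefSeq promoter windows (build GRCh38.p14) that run from 250 bases before to 50 bases after each annotated start. Windows were held for 7 of the 9 genes, all but HMOX1 and SLC7A11. The core was in 4 of the 10 windows of these genes (40%), in 37 of 176 windows of the wider NRF2 gene lists used below (21%) and in 4687 of all 35116 windows (13.3%). A match is a description of the letters, not a bound site. The core was found in windows of GCLM, KEAP1 and TXNRD1, and in none of those of NFE2L2, NQO1, GCLC and SRXN1. Bases outside the windows were not searched, nor were HMOX1 and SLC7A11, so an element elsewhere near any of the 9 genes would be missed. The matches of these 3 genes are shown first, since they are the members whose windows held the core letters. Then come the listed genes whose match reads TGACTCAGC, which also holds the AP-1 letters TGACTCA. Each is printed along the strand that carries the core, with the core in capitals.
GCLM, chr1:93909446-93909474, plus strand: tggaagacaaTGACTAAGCagaaatcgta
KEAP1, chr19:10502784-10502812, plus strand: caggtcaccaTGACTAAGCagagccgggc
KEAP1, chr19:10502807-10502835, minus strand: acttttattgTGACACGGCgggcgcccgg
TXNRD1, chr12:104215670-104215698, plus strand: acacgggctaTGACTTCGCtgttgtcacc
TXNRD1, chr12:104215761-104215789, minus strand: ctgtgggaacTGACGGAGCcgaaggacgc
TXNRD1, chr12:104286920-104286948, minus strand: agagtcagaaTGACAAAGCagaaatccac
GSTP1, chr11:67583736-67583764, plus strand: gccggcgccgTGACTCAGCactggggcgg
ME1, chr6:83431170-83431198, minus strand: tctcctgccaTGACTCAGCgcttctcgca
PIR, chrX:15493289-15493317, plus strand: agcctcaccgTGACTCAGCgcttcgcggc
SLC3A2, chr11:62881652-62881680, plus strand: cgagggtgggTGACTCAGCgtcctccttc

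The core letters of the GCLM match and of 1 KEAP1 match were identical (TGACTAAGC). The GCLM core ended 26 bases before the start, the KEAP1 cores 23 and 46 bases before a second annotated start, and the TXNRD1 cores 91 bases before the first start and 94 bases before the second. The third TXNRD1 core reached the first start itself. None of these 3 genes passed the test between the groups, and their log2 fold changes were -0.01, 0.22 and 0.16 for GCLM, KEAP1 and TXNRD1. Those of GSTP1, ME1, PIR and SLC3A2 were 0.18, 0.16, -0.37 and 0.13.

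Among the glutathione genes, GCLC (ENSG00000001084, chromosome 6, 53497341 to 53616970, minus strand) encodes the catalytic subunit of glutamate-cysteine ligase, the rate-limiting enzyme of glutathione synthesis. Its level was 88.6, 98.6 and 98.5 CPM in the controls and 114.6, 112 and 99.7 CPM with shECM1. In CPM it was the only one of the 9 genes whose groups did not overlap (1 of 9, higher, against 24.4% of all genes tested, 13.2% lower and 11.2% higher). Its level in shECM1 replicate 3 lay just above the highest control library. After the GC trend of each library was subtracted, its groups overlapped. It then stood at 0.0092 in shNC replicate 3 and at -0.0018 in shECM1 replicate 3 on the log2 scale. The log2 fold change was 0.19 ± 0.10 (95% interval -0.04 to 0.42), and it was not called (adjusted p = 0.299). It stayed positive in all 17 alternative fits, between 0.13 and 0.25, and was called in 0 of them.

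GCLM (ENSG00000023909, chromosome 1, 93885205 to 93909456, minus strand) encodes the modifier subunit of the same ligase. It was at 19, 15.3 and 18 CPM in the controls and 19.3, 18.2 and 14.4 CPM with shECM1, from 194 to 305 counts per library. The groups overlapped throughout, with a log2 fold change of -0.01 ± 0.16 (95% interval -0.36 to 0.34, adjusted p = 0.97). Without shECM1 replicate 3 its log2 fold change was 0.11. The ratio of GCLC to GCLM in CPM was 5.53 ± 0.887 in shNC and 6.34 ± 0.511 in shECM1 (SD, n = 3 each), and the ranges overlapped.

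SLC7A11 (ENSG00000151012, chromosome 4, 138164097 to 138242349, minus strand) encodes the cystine transporter xCT, which supplies the cysteine for glutathione and holds off ferroptosis. Levels were 35.3, 29.7 and 46 CPM in shNC against 32.2, 32.3 and 21.4 CPM in shECM1. In CPM the difference between the means rested on the highest control library and the lowest knockdown library, with the other 4 libraries between 29.7 and 35.3 CPM. After the GC trend of each library was subtracted, every knockdown library lay below every control. The nearest were shNC replicate 2 at -0.11 and shECM1 replicate 2 at -0.13 on the log2 scale. The log2 fold change was -0.37 ± 0.19 (95% interval -0.80 to 0.05, adjusted p = 0.273). It was -0.18 without shNC replicate 3, -0.20 without shECM1 replicate 3, and -0.49 without shNC replicate 2 (edgeR adjusted p = 0.0652). DESeq2 without shNC replicate 2 called it lower (adjusted p = 0.0488) together with NQO1, 2 of 9 against 21.9% of all genes (13.2% lower, 8.72% higher), and over all 17 alternatives the adjusted p ran from 0.00583 to 0.723. SLC3A2, the heavy chain that carries xCT to the membrane, was at 608.9 ± 31.4 CPM in the controls and 668 ± 49.2 CPM with shECM1 (log2 fold change 0.13 ± 0.10, adjusted p = 0.428).

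NQO1 (ENSG00000181019, chromosome 16, 69706996 to 69726951, minus strand) encodes a quinone reductase and is a widely used marker of NRF2 activity. It was at 385, 299 and 449 CPM in the controls and at 269.7, 323 and 316 CPM with shECM1. The knockdown libraries lay below shNC replicates 1 and 3, and shNC replicate 2 lay among them. The log2 fold change was -0.32 ± 0.14 (95% interval -0.63 to -0.0029), with an unadjusted p of 0.0482 and an adjusted p of 0.219. Without shNC replicate 2 edgeR called it lower, at -0.45 (adjusted p = 0.0126), and it was then the only member called (1 of 9, against 23.9% of all genes). Leaving out shNC replicate 3 gave -0.17, and over the 17 alternatives the adjusted p ran from 0.00265 to 0.636, with 3 of them calling it. Each of those 3 left out shNC replicate 2.

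**Figure D2:**
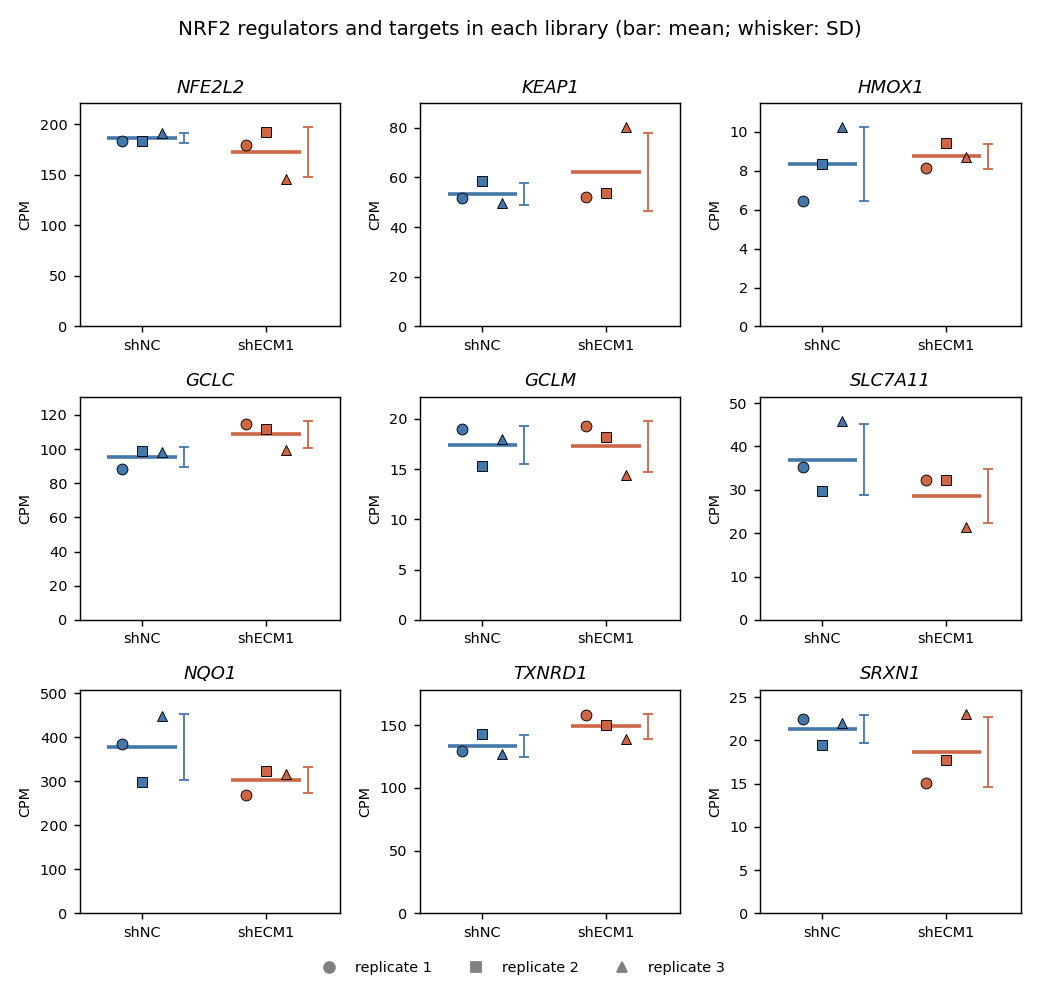
Level of each of the 9 genes in CPM in each library, on linear axes that start at 0; symbols give the replicate, the horizontal bar the mean and the whisker the SD (n = 3 per group). GCLC is the only gene whose 3 shECM1 libraries all lie above the 3 shNC libraries, and the NQO1 level of shNC replicate 2 (299 CPM) lies among those of shECM1.

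In the thioredoxin branch, TXNRD1 (ENSG00000198431, chromosome 12, 104215779 to 104350305, plus strand) encodes the cytosolic reductase that keeps thioredoxin reduced. It was at 129, 143 and 127 CPM in the controls and 158, 150 and 139 CPM with shECM1. Only shECM1 replicate 3 was within the control range. Its log2 fold change was 0.16 ± 0.10 (95% interval -0.06 to 0.39, adjusted p = 0.362), positive in all 17 alternatives and called in 0.

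SRXN1 (ENSG00000271303, chromosome 20, 646615 to 653370, minus strand) encodes sulfiredoxin, which restores overoxidised peroxiredoxins. Its level was 22.5, 19.5 and 22.1 CPM in the controls and 15.1, 17.7 and 23.1 CPM with shECM1. Here shECM1 replicate 3 was the highest of the 6 libraries and the other knockdown libraries were the lowest. Its log2 fold change was -0.19 ± 0.17 (95% interval -0.56 to 0.17, adjusted p = 0.505), -0.37 without shECM1 replicate 3 and -0.06 without shECM1 replicate 1. Its exons overlap those of AL121758.1 on the same strand, which has a row of its own in the table, so its value is uncertain.

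HMOX1 (ENSG00000100292, chromosome 22, 35380361 to 35394214, plus strand) encodes heme oxygenase 1 and is also held down by the repressor BACH1. It rested on 76 to 158 counts per library, the fewest of the 9. Its level was 6.43, 8.33 and 10.2 CPM in the controls and 8.14, 9.41 and 8.71 CPM with shECM1, so that every knockdown library lay inside the control range. Its log2 fold change was 0.07 ± 0.20 (95% interval -0.37 to 0.51, adjusted p = 0.855), the widest interval of the 9 genes. BACH1 was at 28.8 ± 2.39 CPM in the controls and 27.5 ± 5.05 CPM with shECM1 (log2 fold change -0.07, adjusted p = 0.81).

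**Figure D3:**
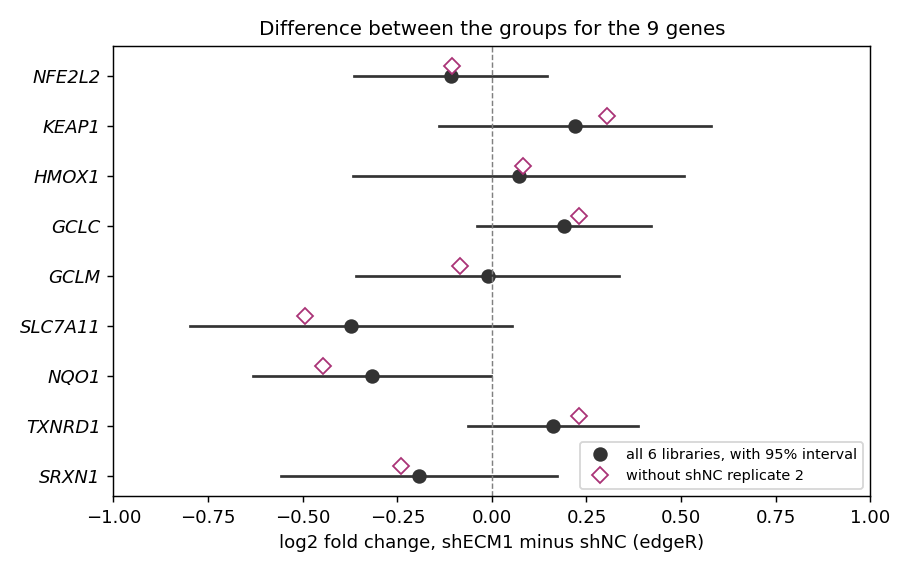
Log2 fold change (shECM1 minus shNC) of the 9 genes from edgeR, with the 95% interval as a line for all 6 libraries and an open diamond for the fit without shNC replicate 2. The filled points run from -0.37 (SLC7A11) to 0.22 (KEAP1), and leaving out shNC replicate 2 moves NQO1 from -0.32 to -0.45.

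Spread within the groups was compared with that of all genes. The median SD of log2 CPM over the 9 genes was 0.12 in shNC and 0.21 in shECM1, and over all genes tested it was 0.17 and 0.16. In 6 of the 9 genes shNC replicate 2 lay nearer to the shECM1 mean than to the mean of shNC replicates 1 and 3, and this was so for 68.2% of all genes. In 7 of the 9 genes shECM1 replicate 3 was the knockdown library farthest from the median of its group, against 57.6% of all genes. The median absolute log2 fold change was 0.19 over the members and 0.20 over all genes.

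The members differ in GC content. The longest transcript of SLC7A11 held 35.4% GC and that of KEAP1 60.3%, and the GC trend of the libraries differed between shNC replicates 1 and 3 and shECM1 replicates 1 and 2. With each library's trend taken out as an offset, the log2 fold change of KEAP1 was 0.41 (adjusted p = 0.174), of HMOX1 0.26, of SLC7A11 -0.54 (adjusted p = 0.168), of GCLM -0.16, of SRXN1 -0.10 and of TXNRD1 0.11. With this offset edgeR again called 0 of the 9 genes and 0% of 12502 genes. With the offset and without shNC replicate 2 it called 3 of the 9, against 26.7% of all genes (12.8% lower, 13.9% higher): SLC7A11 at -0.71 (adjusted p = 0.00583) and NQO1 at -0.51 (adjusted p = 0.00772) lower, and KEAP1 at 0.57 (adjusted p = 0.0116) higher. For KEAP1 the adjusted p ran from 0.0116 to 0.971 over the alternatives. After the GC trend was subtracted, KEAP1 stood at -0.30, 0.05 and -0.37 on the log2 scale in shNC replicates 1, 2 and 3 and at 0.06, 0.08 and 0.47 in shECM1 replicates 1, 2 and 3, so that shNC replicate 2 lay next to the lower knockdown libraries. SLC7A11 then stood at 0.25, -0.11 and 0.635 in shNC replicates 1, 2 and 3 and at -0.19, -0.13 and -0.46 in shECM1 replicates 1, 2 and 3. After this subtraction the groups of KEAP1 and SLC7A11 did not overlap, and those of the other members, GCLC included, did. The share of all genes without overlap after this subtraction was not computed. The GC offset was not run without shECM1 replicate 3.

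Some 146 other genes around NRF2 were listed by role, of which 131 were tested. edgeR called 0 of them (0% of all genes) and DESeq2 called 6, 3 in each direction (MAFF, ABCC3 and DDIT4 lower, and MGST1, TXN and PRDX4 higher), where DESeq2 called 5.09% of all genes lower and 0.957% higher. At an unadjusted p under 0.05 there were 19 lower and 10 higher, 22.1% in all, close to the 22.5% of all genes. The groups did not overlap in 26.7% of the 131 genes, near the 24.4% of all genes. The median log2 fold change was -0.0020, with 66 negative and 65 positive. Without shNC replicate 2, edgeR called 24 lower and 12 higher, where it called 14.1% of all genes lower and 9.73% higher. In none of the 7 lists did the median pass 0.1 in size.

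**Figure D4:**
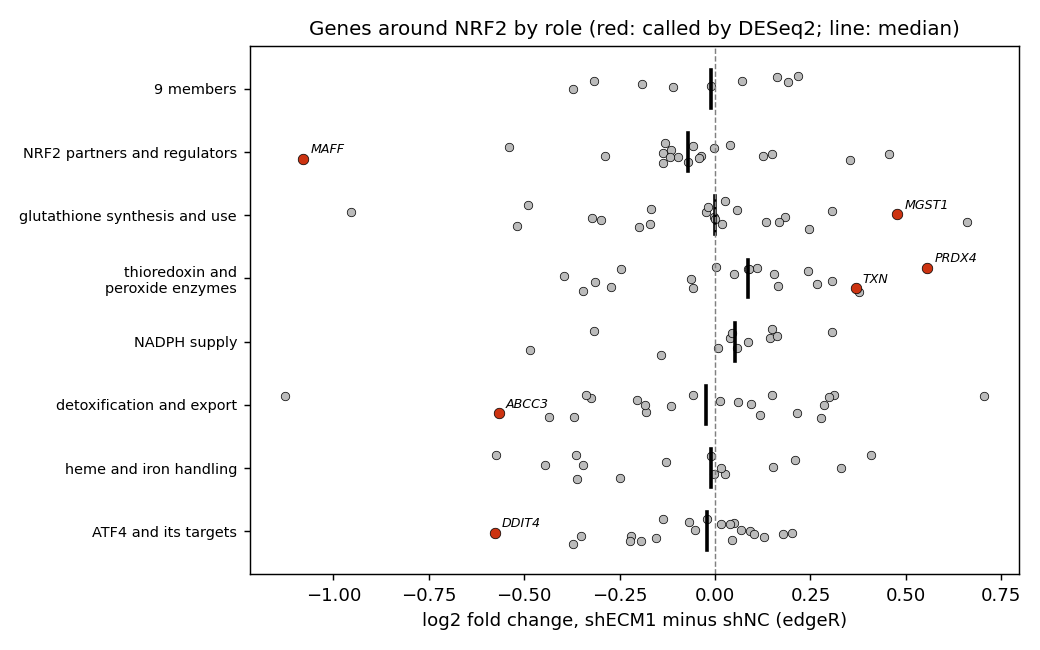
Log2 fold change (shECM1 minus shNC, edgeR) of the 9 members and of the 131 tested genes in 7 lists by role; the vertical bar is the median of each list and red points with names are the 6 genes called by DESeq2. The lists centre near 0, from -0.07 for partners and regulators to 0.09 for thioredoxin and peroxide enzymes, with single genes on both sides.

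Of 19 tested partners and regulators, 0 were called by edgeR (0% of all genes) and 1 was called lower by DESeq2 (5.09% of all genes). A negative value was found in 14 of the 19, and in 6110 of all 12576 genes. MAFF, a small MAF protein that pairs with NRF2 and is also an early response gene, was at 21.2, 11.4 and 32.5 CPM in the controls and at 11, 10.4 and 9.44 CPM with shECM1. All knockdown libraries lay below all controls, with shNC replicate 2 just above them. Its log2 fold change was -1.08 ± 0.30 (adjusted p = 0.106 by edgeR). It was lower by DESeq2, with an adjusted p of 0.00959, and its adjusted p over the alternatives ran from 1.95e-08 to 0.39. Without shNC replicate 3 its log2 fold change was -0.66, and with the GC offset it was -0.81 (edgeR adjusted p = 0.174). SQSTM1, the autophagy receptor p62 that binds KEAP1, was at 375.7 ± 11.3 CPM in the controls and 375 ± 37.5 CPM with shECM1. NFE2L1, a related transcription factor that drives proteasome genes, was at 293 ± 12.1 and 268 ± 8.58 CPM (log2 fold change -0.13, adjusted p = 0.417).

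Of 22 tested glutathione genes, DESeq2 called 1 higher (0.957% of all genes) and edgeR 0 (0% of all genes), with 11 values on each side. MGST1, a microsomal glutathione transferase, was at 36.3, 43.5 and 35.7 CPM in the controls and 54.3, 57.9 and 48.6 CPM with shECM1. The groups did not overlap (log2 fold change 0.48 ± 0.13, edgeR adjusted p = 0.103, DESeq2 adjusted p = 0.0262), and the adjusted p over the alternatives ran from 0.00089 to 0.393. GSTP1, a cytosolic glutathione transferase, was at 506.7 ± 35.9 CPM in the controls and 575.7 ± 85.6 CPM with shECM1 (0.18 ± 0.12). Its log2 fold change was 0.07 without shECM1 replicate 3 and 0.42 with the GC offset, and with that offset and without shNC replicate 2 it was called higher (0.47, adjusted p = 0.00837). For SLC3A2 these values were 0.07, 0.30 and 0.40, the last of them called (adjusted p = 0.00787).

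Of 20 thioredoxin and peroxide genes, 7 had a negative and 13 a positive value, where 6110 of all 12576 genes were negative. DESeq2 called 2 of them higher and 0 lower, against 0.957% and 5.09% of all genes. PRDX4, the peroxiredoxin of the endoplasmic reticulum, was at 104, 148 and 99 CPM in the controls and 162, 184 and 171 CPM with shECM1 (log2 fold change 0.56 ± 0.15, edgeR adjusted p = 0.105, DESeq2 adjusted p = 0.0169). Its control replicate 2 was nearest to the knockdown libraries, and the adjusted p over the alternatives ran from 1.14e-08 to 0.393. TXN, thioredoxin itself and the substrate of TXNRD1, was at 301, 369 and 344 CPM in the controls and 439, 470.1 and 399.7 CPM with shECM1. Its groups did not overlap (0.37 ± 0.11, edgeR adjusted p = 0.115, DESeq2 adjusted p = 0.0476), with an adjusted p of 0.00257 to 0.403 over the alternatives. PRDX1, a cytosolic peroxiredoxin, was at 367 ± 30.9 and 408 ± 8.4 CPM (0.15 ± 0.10, adjusted p = 0.371).

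Among 12 genes of NADPH supply, which feeds both reductase systems, 0 were called by edgeR (0% of all genes) or DESeq2 (6.04% of all genes). The mitochondrial enzyme gene IDH2 had the smallest p of the list, at 164.6 ± 48.5 against 117.7 ± 5.92 CPM, with 112 CPM in shNC replicate 2 (-0.48 ± 0.18, adjusted p = 0.159). It was -0.28 without shNC replicate 3, and 3 of 17 alternatives called it lower, among them edgeR without shNC replicate 2 (-0.68, adjusted p = 0.00116). The transketolase gene TKT and MTHFD2, a mitochondrial folate enzyme gene, had log2 fold changes of -0.14 and 0.05.

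Of 22 detoxification and export genes, DESeq2 called 1 lower, where it called 5.09% of all genes lower, and edgeR called 0 (0% of all genes). ABCC3, an exporter of organic anions and conjugates, was at 148, 140.1 and 179 CPM in the controls and 108, 103 and 104 CPM with shECM1. All control libraries, shNC replicate 2 included, lay above all knockdown libraries (-0.57 ± 0.11, edgeR adjusted p = 0.0973, DESeq2 adjusted p = 0.00195, and 1.58e-05 to 0.376 over the alternatives). ABCC1, a glutathione conjugate exporter, was at 109.8 ± 10.5 and 95.2 ± 4.5 CPM (-0.20 ± 0.11, adjusted p = 0.277).

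Of 15 heme and iron genes, 0 were called by edgeR (0% of all genes) or DESeq2 (6.04% of all genes). The ferritin heavy chain gene FTH1 was at 10726 ± 547.9 CPM in the controls and 9818 ± 307.6 CPM with shECM1 (-0.13 ± 0.09, adjusted p = 0.426). It has many processed copies in the genome, so its count is uncertain. The ferritin light chain gene FTL was at 632 ± 56.9 and 702.6 ± 116 CPM (0.15 ± 0.13). It was 0.05 without shECM1 replicate 3, and 0.42 and called higher with the GC offset without shNC replicate 2 (adjusted p = 0.0221). ABCB6, a porphyrin transporter, had the smallest p of the list (-0.36 ± 0.12, adjusted p = 0.129). It was -0.16 with the GC offset, and edgeR without shNC replicate 2 called it lower (adjusted p = 0.0278).

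SLC7A11 is also a target of ATF4, the transcription factor of the integrated stress response. ATF4 and 20 of its targets were tested. Of these, edgeR called 0 (0% of all genes) and DESeq2 called 1 lower, where it called 5.09% of all genes lower. That gene was DDIT4, an inhibitor of mTORC1 signalling, at 2447 ± 599 CPM in the controls and 1640 ± 75.5 CPM with shECM1 (-0.58 ± 0.16, DESeq2 adjusted p = 0.0173, and 3.38e-11 to 0.393 over the alternatives). In shNC replicate 2 it was at 1760 CPM. SHMT2, a mitochondrial serine enzyme gene, was at 1313 ± 29.6 and 1376 ± 109 CPM (0.07 ± 0.10), and was called higher with the GC offset without shNC replicate 2 (0.29, adjusted p = 0.0299). The list had a median log2 fold change of -0.02, with 11 negative and 10 positive.

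Likeness of pattern was measured as the root mean square difference of centred log2 CPM over the 6 libraries, among 5552 genes with a mean log2 CPM of at least 5. The genes nearest to NFE2L2 were HEATR5A (0.04), ERMP1 (0.04) and PICALM (0.04), each lowest in shECM1 replicate 3. Nearest to NQO1 were ETFB (0.03), CYSTM1 (0.05) and CAT, the catalase gene (0.05), each highest in shNC replicate 3 and next highest in shNC replicate 1. CAT was at 72.3, 56.6 and 82.6 CPM in the controls and 50.3, 55.6 and 60.2 CPM with shECM1. Nearest to SLC7A11 were S100A10 (0.05), CAV2 (0.05) and NUP58 (0.06), each highest in shNC replicate 3 and lowest in shECM1 replicate 3. The shared order of libraries follows from the rule that picked these genes.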

How the data were processed

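The authors deposited 1 table of raw counts: a whole-number count per gene in each of 6 libraries, 3 of shNC and 3 of shECM1. The submitters' processing notes name featureCounts, STAR, fastp, Seurat and DESeq2 and the builds GRCh38 and hg38; their roles and versions, the annotation and any use of strand were not given in the sources used here. Both total RNA extraction and droplet single-cell libraries are described in the labels' protocols, and each column was analysed as 1 library, matched to a sample title by letter and number. Whether replicates were separate cultures is not stated, and the p-values then measure only spread between the samples, possibly technical. Every pair of libraries differed by more than sampling noise (chi-square per gene of at least 3.31).

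Symbols were found for 20462 of 20476 identifiers, and 0 rows named no gene. Coordinates and transcript GC content came from GENCODE release 29 (GRCh38), and promoter sequences from RefSeq (GRCh38.p14). In R 4.3.3, edgeR 4.0.16 filtered genes by group (filterByExpr), scaled libraries by TMM and compared shECM1 with shNC by the quasi-likelihood test with no covariate, with Benjamini-Hochberg adjustment over all 12576 genes and a threshold of 0.05. Each SE is the log2 fold change over the root of F, and the 95% interval uses the test's degrees of freedom. Log2 CPM used a prior count of 2. DESeq2 1.42.0 and limma-voom (limma 3.58.1) were alternatives, run on the same genes. The procedure was tested on simulated counts, drawn independently for each library. They held no GC trend and no control library set apart like shNC replicate 2, so the test does not cover those features.

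The 9 members and the 7 lists of related genes were chosen with earlier results of these data known. Named genes were the 9 members, ECM1, the 2 most abundant genes of each list, list genes called by edgeR or DESeq2 (or the smallest p where there were none), 6 genes with textbook roles beside the members (1 is not reported here), and the 3 genes nearest in pattern to NFE2L2, NQO1 and SLC7A11; others were named after their values were seen. The GC offset (a loess trend per library) was chosen after seeing the data.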

Additional observations from a re-analysis of the deposited data

How the results depend on the processing

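Over all genes, edgeR with all libraries called 0; it called 505 with no count filter, DESeq2 called 701 and, without shNC replicate 2, 2732, the GC offset without shNC replicate 2 gave 3376, and leaving out 1 library gave 0 to 3037 (the highest without shNC replicate 2). Of the 9 members, DESeq2 called 2 without shNC replicate 2 and the GC offset without it called 3, and leaving out 1 library gave 0 to 1. Of the 131 related genes, the no-filter fit called 4 and DESeq2 6. DESeq2 without shNC replicate 2 called 33, the GC offset without it 44, and leaving out 1 library gave 0 to 36. Beside these counts and those of the members, DESeq2 called 6.04% of all genes and 21.9% without shNC replicate 2. Without that library edgeR called 23.9% of all genes, and 26.7% with the GC offset. ECM1 was called with no count filter (-1.58), by edgeR without shNC replicate 2 (-1.88), by DESeq2 (-1.58 and, without shNC replicate 2, -1.89) and with the GC offset without shNC replicate 2 (-1.71), and leaving out 1 library gave -1.88 to -1.24. The median log2 fold change of the members was -0.13 with the GC offset without shNC replicate 2, and otherwise stayed within 0.0991 of the main value, the SD over library pairs.

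Signs that turned were all of uncalled values in the 6-library fit. Leaving out 1 library gave NFE2L2 -0.19 to 0.0015, KEAP1 -0.0088 to 0.33, HMOX1 -0.0766 to 0.25, GCLM -0.0840 to 0.1053, SQSTM1 -0.0863 to 0.0544 and BACH1 -0.15 to 0.0765. GCLM was 0.0163 with library size only. SQSTM1 was 0.0025 with upper-quartile factors, 0.0225 with library size only, 0.0024 with no count filter, 0.0234 with DESeq2 without shNC replicate 2, and 0.18 and 0.26 with the GC offset with and without shNC replicate 2, the last of them called (adjusted p = 0.0374). With the GC offset TKT was 0.0020 and MTHFD2 -0.0533, and without shNC replicate 2 as well MTHFD2 was -0.12 and NFE2L1 0.0117. The causes were not tested.

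Deviations from the group means of same-numbered libraries correlated at -0.07, -0.05 and -0.18. Between libraries of different numbers the correlations ran from -0.08 to 0.13. With 3 libraries per group these values cannot decide whether the shared replicate numbers pair the samples. With the replicate block edgeR called 0 genes, 0 members and 0 related genes, and the members' median was -0.01. HMOX1 had the fewest counts of the members, with 76 to 158 per library, and the part of depth in its wide interval was not tested.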

Other observations

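Several genes beside the members, chosen after their values were seen, were high in shNC replicates 1 and 3 and at the level of the knockdown libraries in shNC replicate 2. TFRC, the transferrin receptor gene, was at 494, 262 and 478 CPM in the controls and 259, 263 and 306 CPM with shECM1 (log2 fold change -0.57 ± 0.20, edgeR adjusted p = 0.138). GPX2, the gastrointestinal glutathione peroxidase gene and an NRF2 target, was at 308, 240 and 445 CPM against 209, 233 and 252 CPM (-0.52 ± 0.19, adjusted p = 0.148). ALAS1, the first enzyme gene of heme synthesis, was at 212, 165 and 259 CPM against 156, 166 and 146 CPM (-0.44 ± 0.15, adjusted p = 0.13). None was called by edgeR with the count filter or DESeq2 on all 6 libraries. Without shNC replicate 2, edgeR called TFRC, GPX2 and ALAS1 lower (adjusted p = 0.000425, 0.00437 and 0.00322), where it called 14.1% of all genes lower. These genes were chosen for a pattern that leaving out shNC replicate 2 sharpens, so these calls are no separate support for a difference. In 68.2% of all genes shNC replicate 2 lay nearer to the shECM1 mean than to the mean of shNC replicates 1 and 3. ABCC4, an exporter gene, had the opposite order, at 26.1, 40.5 and 16.5 CPM in the controls and 43.9, 41.6 and 50.1 CPM with shECM1 (0.70 ± 0.25, adjusted p = 0.142). Without shNC replicate 2, edgeR called ABCC4 higher (adjusted p = 0.001525), where it called 9.73% of all genes higher. ABCC4 was also chosen after its values were seen, so the same limit applies.

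MAFK, a small MAF gene like MAFF, was at 41.5, 29.5 and 46.9 CPM in the controls and 27.5, 24.3 and 29.3 CPM with shECM1, without overlap (-0.54 ± 0.17, adjusted p = 0.12), whereas MAFG, the other small MAF gene, was at 0.04 (adjusted p = 0.891). Without shNC replicate 2, edgeR called MAFK lower (adjusted p = 0.00283) and did not call MAFG (adjusted p = 0.615). MAFK was named after its values were seen, so this call is no separate support for a difference. With the GC offset the log2 fold changes were -0.28 for MAFK and 0.20 for MAFG, neither called by edgeR (adjusted p = 0.233 and 0.398). With the offset and without shNC replicate 2, edgeR called MAFK lower at -0.39 (adjusted p = 0.0227) and did not call MAFG at 0.33 (adjusted p = 0.0882).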
